A study of Mus musculus with 16 samples.

Results

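A set of 40 interferon-stimulated genes (ISGs) was followed in 16 mouse osteosarcomas. The set was defined as a list of gene symbols, and all 40 were found among the 25054 genes of the count table. It comprised 4 signal transcription factors, 4 nucleic acid sensors, 5 OAS genes, 4 IFIT genes, 4 genes of the ISG15 system, 6 direct antiviral effectors, 5 guanylate-binding and IRG GTPases, 3 genes of the PARP and DTX3L group and 5 other induced genes. The question put to them was whether tumors with floxed Arid1a differed in their interferon response from tumors without it. Arid1a encodes a DNA-binding subunit of SWI/SNF chromatin remodeling complexes.

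All 16 tumors arose in mice of the genotype OsxCreERT2+/-;p53fl/fl;Rb1fl/fl. This Cre acts after tamoxifen and is driven by the promoter of Osterix, so alleles are deleted in cells of the osteoblast lineage and other cells of a tumor keep them. Each mouse received 400 ug of tamoxifen per g of body weight at 1 month of age, and the mice were over 6 months old and of both sexes. The 8 tumors labeled KO also carried Arid1afl/fl and came from 8 mice, whose labels name no body site. The 8 tumors labeled WT came from 4 mice by their animal codes, so they are not 8 independent animals. Mouse N42 gave 4 of them and N43 gave 2, while N215 and N25 gave 1 tumor apiece, and the N25 tumor is labeled lung. Tumors are bulk tissue, so fewer cells of a type and less RNA per cell cannot be told apart.

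Interferons are secreted proteins, and cells release those of type I on sensing viral or misplaced nucleic acid. Type I interferons bind a receptor made of Ifnar1 and Ifnar2, and type II interferon binds Ifngr1 and Ifngr2. The receptors act through JAK kinases on STAT proteins. STAT2 and IRF9 are parts of the complex that binds the interferon-stimulated response element (ISRE), and the gamma-activated site (GAS) is the element of the type II response. ISGs encode further sensors, the signaling factors themselves and proteins that block viral entry, translation or replication. In tumors they are known both in the malignant cells and in macrophages and other immune cells.

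Promoter sequences were read from windows of RefSeq (GRCm38.p6), each from 250 bases before to 50 bases after an annotated start. The ISRE core was searched as GAAA and GAAA with 2 bases of any kind between them, and the GAS as TTC and GAA with 3 bases of any kind between them, on both strands. Of the 40 genes 29 had a window, and 15 of these (51.7%) held the ISRE core, beside 3.99% of all 27025 genes with a window. The GAS was held by 8 of the 29 (27.6%), beside 9.55% of all genes, and 4 genes held both. The 24 ISRE matches overlapped in part where the core repeats, as in Isg15, Oas1a and Gbp3, and 22 lay upstream, from 14 to 222 bases before the start. Within 100 bases upstream lay 13 matches, in 8 genes. A match describes these letters and is not a measured binding site. One match is shown for each role group that has any, from the member with the highest mean level among those with a match, so that the core can be seen in its surroundings. The strand of the gene is shown 5′ to 3′, and capitals mark the ISRE core in either orientation.
Stat2 (chr10:128270248-128270315, plus strand): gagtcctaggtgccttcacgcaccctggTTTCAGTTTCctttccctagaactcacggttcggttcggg
Ifih1 (chr2:62646206-62646253, minus strand): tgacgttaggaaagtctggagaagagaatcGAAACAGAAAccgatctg
Oas3 (chr5:120777695-120777764, minus strand): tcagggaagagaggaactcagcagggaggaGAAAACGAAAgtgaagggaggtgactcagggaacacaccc
Ifit3 (chr19:34583343-34583412, plus strand): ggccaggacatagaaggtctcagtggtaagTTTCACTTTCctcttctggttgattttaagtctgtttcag
Isg15 (chr4:156200845-156200914, minus strand): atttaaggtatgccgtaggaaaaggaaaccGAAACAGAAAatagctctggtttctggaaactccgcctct
Rsad2 (chr12:26456533-26456602, minus strand): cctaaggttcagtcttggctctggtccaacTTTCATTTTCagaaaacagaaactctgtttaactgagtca
Gbp7 (chr3:142530253-142530322, plus strand): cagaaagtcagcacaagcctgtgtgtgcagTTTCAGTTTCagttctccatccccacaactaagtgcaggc
The core lay 222 bases before the start in Stat2, 156 in Ifit3, 120 in Rsad2, 75 in Oas3, 66 in Isg15 and 53 in Gbp7, and 33 bases after it in Ifih1. In Stat2, Ifit3, Rsad2 and Gbp7 it read in the reverse orientation, as TTTC and TTTC.

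Levels are given as CPM, the counts on a gene per 1000000 counts of the normalized library size. The KO libraries held 1109487 to 15059640 counts on genes and the WT libraries 7806160 to 16962329. The shallowest were Massa and Grilka, both KO, in which 3 counts correspond to 6.69 and 4.03 CPM. Of the 320 KO values of the set, 26 were at 3 counts or fewer, 9 in Massa, 14 in Grilka and at most 2 in any other tumor, against 0 of 320 WT values. Counts over the whole Arid1a gene ran from 107 to 270 CPM in KO and from 125 to 236 CPM in WT (log2 fold change 0.16 ± 0.22 SE, adjusted p = 0.715). They include exons outside the deleted part and all cells of a tumor, so they do not check the deletion. Markers of the osteoblast lineage were present in most tumors: Runx2 was between 6.89 and 551 CPM in KO and between 28.2 and 208 CPM in WT, and Sp7 was at 0 in 1 KO tumor. The summed level of 10 osteoblast marker genes was 715 to 60127 CPM in KO (median 7355, lowest in Prince) and 2896 to 83963 CPM in WT (median 56179). The median log2 fold change of the list was -1.36, and 0 of the 10 genes were called. The part of this difference in the ISG values was not tested. Some KO tumors held much RNA of other tissues, with summed muscle markers of 69029 CPM in Montana and 124910 CPM in Oregon, salivary gland markers of 111209 CPM in Prince and lung markers of 11041 CPM in Massa. Lung markers reached 26347 CPM in N25.

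None of the 40 ISGs rose or fell in KO tumors by the test across all genes (edgeR's quasi-likelihood test, adjusted p under 0.05). In that fit 1.86% of 15413 genes were higher and 2.15% lower in KO, 4.01% in all. At an unadjusted p under 0.05 there were 2, Stat2 and Ifit2, beside 23.0% of all genes. DESeq2 called 0 of the 40, beside 12.5% of the genes it tested. In none of the 40 did the KO and WT values fail to overlap, which occurred in 0.415% of all genes. The estimates lay above 0 for 17 and below 0 for 23, with a median log2 fold change of -0.06 beside 0.10 for all genes. Montana, Oregon and Prince, the KO tumors with much muscle or salivary gland RNA, were among the lower KO tumors in summed ISG level, so leaving them out had to raise the median (to 0.26), and 0 members passed the test then. Grilka, with no such RNA at that level, was the lowest KO tumor (397 CPM, from 296 counts). Massa, with lung markers, was at 1345 CPM, from 603 counts in the shallowest library. The part of other tissues in the ISG values was not tested. The estimates of all 8 KO and 8 WT tumors reached from -0.77 in Ifit2 to 0.84 in Ifit3b. The fit did not measure most of them tightly: the median 95% interval reached 1.00 to either side on the log2 scale, and only 8 had an interval within 2-fold in both directions. For the rest, a 2-fold difference in one or both directions lay within the interval.

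**Figure D1:**
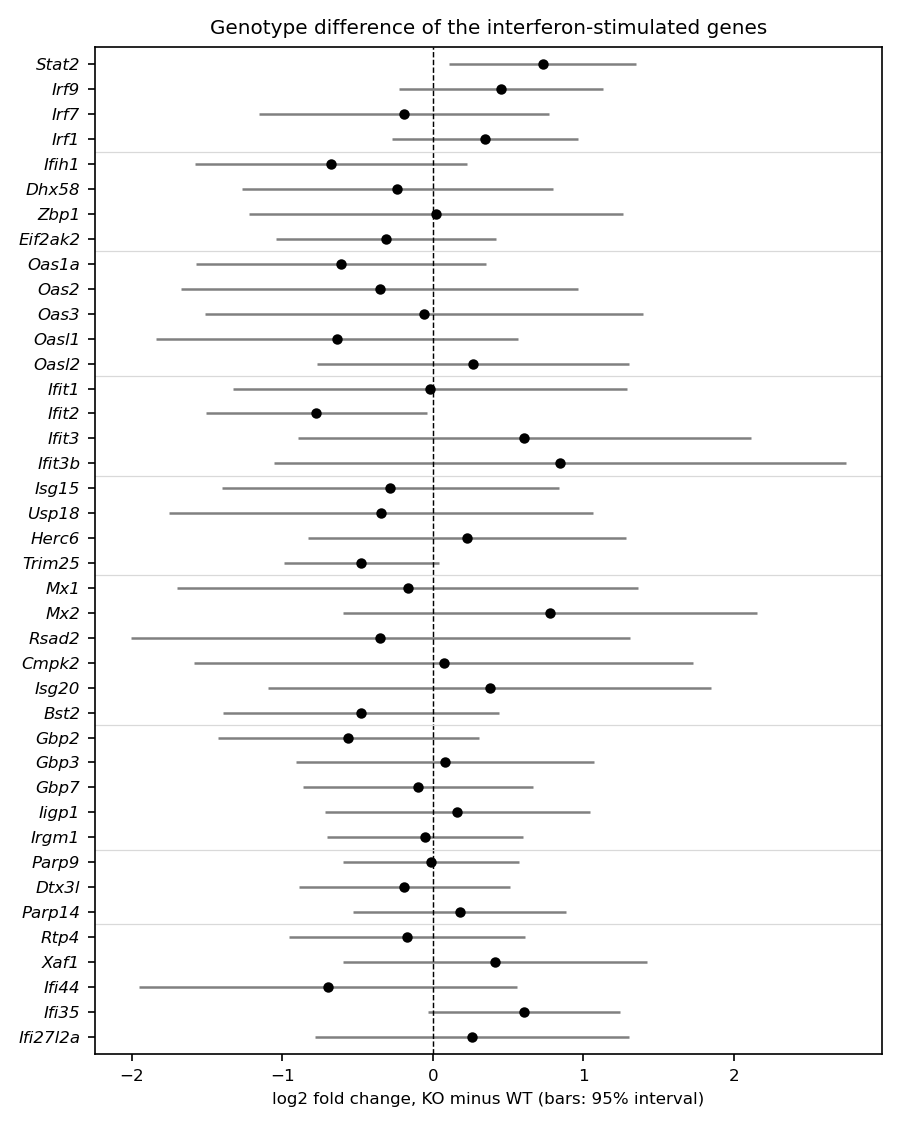
Log2 fold change of each ISG, KO minus WT, with its 95% interval (bars) from the fit across all genes. Points run from -0.77 to 0.84, and none of the 40 passed the adjusted threshold although the intervals of Stat2 and Ifit2 do not cross 0.

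Among the signal transcription factors, Stat2 (ENSMUSG00000040033, GRCm38 chromosome 10, 128270559 to 128292849), part of the complex that binds the ISRE, was between 28.5 and 82.4 CPM in KO (median 42.3) and between 16.4 and 53.4 CPM in WT (median 24.9). Medusa was the highest KO tumor and N215 the highest WT tumor, and the groups overlapped. Its log2 fold change was 0.73 ± 0.30 (SE), with an adjusted p of 0.151, the smallest of the set. Irf9, the DNA-binding partner of STAT2, and Irf1, an interferon-gamma responsive factor, were also estimated higher in KO (0.45 and 0.34), and Irf7, which amplifies type I interferon production, lower (-0.19). None of the 4 passed the test.

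Of the nucleic acid sensors, 3 of 4 had estimates below 0. Ifih1 (MDA5, a sensor of long double-stranded RNA) was between 6.71 and 113 CPM in KO (median 30.9) and between 37.7 and 118 CPM in WT (median 52.0). The values of 6 KO tumors were below the lowest WT tumor, while Medusa stood with the highest WT tumor, the N42 left shoulder. The estimated log2 difference was -0.67 ± 0.43 (adjusted p = 0.360). Dhx58 (LGP2), which tunes MDA5, Eif2ak2 (PKR), which halts translation, and Zbp1, a sensor of Z-form nucleic acid, had estimates of -0.24, -0.31 and 0.02.

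The 5 OAS genes, which make or resemble the enzymes that activate RNase L, lie on chromosome 5, and 4 of 5 estimates were below 0 (median -0.35). Oasl2 was between 4.47 and 60.4 CPM in KO (median 21.1) and between 4.66 and 43 CPM in WT (median 18.3). The lowest tumors of both groups, Oregon and the N42 right femur, were nearly level, and the groups overlapped. Its log2 fold change was 0.27 ± 0.49 (adjusted p = 0.792), and Oas1a, Oas2, Oas3 and Oasl1 had estimates of -0.61, -0.35, -0.06 and -0.64.

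The IFIT proteins bind viral RNA and restrain its translation, and their 4 genes lie together on chromosome 19. Ifit2 (ENSMUSG00000045932, 34550694 to 34576419) was between 4.73 and 21.5 CPM in KO (median 11.9) and between 12.2 and 49.5 CPM in WT (median 19.0). N215 stood highest, and 4 KO tumors were below the lowest WT tumor. The log2 fold change was -0.77 ± 0.35 with an adjusted p of 0.193. Ifit3b ran from 0 to 42.4 CPM in KO (median 2.46) and from 1.04 to 8.17 CPM in WT (median 2.37). Massa alone exceeded the WT range, and Montana and Grilka were at 0. Its estimate was 0.84 ± 0.90 (adjusted p = 0.615), and those of Ifit1 and Ifit3 were -0.02 and 0.61. Massa was also highest in Ifit1 (73.6 CPM) and Ifit3 (118 CPM), in a library in which Oas1a, Oas2, Oasl1 and Bst2 had 0 counts. Ifit3 and Ifit3b share 51.2% and 45.0% of their 50-base stretches with other genes, mainly each other, so reads may be split between them, and the same holds for Oas1a (57.6%, mainly with Oas1g). Another 5 members shared between 7.13% and 12.7%.

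In the ISG15 system, Isg15 is a ubiquitin-like protein, Herc6 and Trim25 are ligases linked to it and Usp18 removes it. Trim25, also a partner of the sensor RIG-I, was between 34.9 and 114 CPM in KO (median 56.7) and between 57.6 and 108 CPM in WT (median 92.4). Massa was above all WT tumors and Zelda within their range, and the other 6 KO tumors were below 7 of the 8 WT tumors. Its log2 fold change was -0.48 ± 0.24 (adjusted p = 0.254). Isg15, Usp18 and Herc6 had estimates of -0.28, -0.34 and 0.23. Isg15 was 44.8 CPM in Medusa, higher than in any WT tumor, and at most 19.4 CPM in the other KO tumors.

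The direct antiviral effectors varied widely between KO tumors. Rsad2 (viperin, ENSMUSG00000020641, chromosome 12, 26442746 to 26456452), which makes a chain-terminating nucleotide, was between 2.23 and 195 CPM in KO (median 8.58) and between 8.80 and 96.7 CPM in WT (median 45.3). Zelda was the highest of all 16 tumors and the next KO tumor, Ohio, was at 25 CPM. The log2 fold change was -0.35 ± 0.79 (adjusted p = 0.834). Without Zelda it was -2.01 with an adjusted p of 0.0415, the single call of a member in any of 25 alternatives, and without Zelda 1348 genes were called in all. Zelda also had the highest KO sums of erythroid (1444 CPM), B and plasma cell (656 CPM), neutrophil (419 CPM) and liver markers (1620 CPM). The same tumor was the highest KO tumor in T and NK cell (106 CPM), dendritic cell (77.8 CPM) and macrophage markers (657 CPM). In WT Rsad2 was highest in the N43 spine tumor, which had the highest WT erythroid sum (481 CPM) but a T and NK cell sum of 5.44 CPM. The part of these cells in the Rsad2 values was not tested. Mx2, a dynamin-like GTPase that blocks viruses, was between 0 and 44.3 CPM in KO (median 7.0) and between 3.33 and 15.5 CPM in WT (median 5.33). Medusa was the only KO tumor far above the WT range. The estimate was 0.78 ± 0.65 (adjusted p = 0.505). Mx1, Cmpk2 (a nucleotide kinase beside Rsad2 on chromosome 12), Isg20 (an exonuclease) and Bst2 (tetherin, which holds virions at the membrane) had estimates of -0.17, 0.07, 0.38 and -0.48.

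Among the GTPases, which act on vacuoles of intracellular pathogens, Gbp7 was between 13.4 and 63.5 CPM in KO (median 31.9) and between 25.2 and 53.5 CPM in WT (median 35.7). The KO tumors lay on both sides of the WT range, 4 below it and 3 above. Its estimate was -0.10 ± 0.36 (adjusted p = 0.902). Gbp2, Gbp3, Iigp1 and Irgm1 had estimates of -0.56, 0.08, 0.16 and -0.05. Parp14, an ADP-ribosyltransferase, was between 24.2 and 142 CPM in KO (median 56.4) and between 36.5 and 92.0 CPM in WT (median 60.4). Zelda and Medusa were above all WT tumors and Grilka below them. The estimate was 0.18 ± 0.34 (adjusted p = 0.798), and its chromosome 16 neighbors Parp9 and Dtx3l, which act as a pair, had -0.01 and -0.19.

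Of the other induced genes, Xaf1, which antagonizes the inhibitor XIAP, was between 14.9 and 178 CPM in KO (median 30.6) and between 13.8 and 70.8 CPM in WT (median 36.1). Massa was the outlying KO tumor, and the others overlapped WT. On the log2 scale KO minus WT was 0.41 ± 0.48 (adjusted p = 0.650). Ifi44 ran from 1.34 to 22.3 CPM in KO (median 4.69) and from 3.16 to 27.2 CPM in WT (median 9.80). The N42 left shoulder was highest and Grilka lowest. Its estimate was -0.70 ± 0.60 (adjusted p = 0.514). Rtp4, a chaperone of receptors, Ifi35 and Ifi27l2a had estimates of -0.17, 0.60 and 0.26. Per kilobase of exon, which allows genes to be compared, the mean level was highest in Ifi27l2a (47.0 CPM per kb), Isg15 (17.9) and Trim25 (13.2) and lowest in Oas3 (0.88).

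The ISGs varied widely between tumors of one genotype. The median SD of log2 CPM was 1.27 in KO and 0.74 in WT, beside 1.00 and 0.49 for the 9930 genes within the level range of the members (4.77 to 75.8 CPM on average). The SD was larger in KO than in WT for 38 of 40, but also for 89.6% of the genes in this range. The members moved together: over their 780 pairs the mean Pearson r across 8 tumors was 0.47 in KO and 0.56 in WT, beside 0.03 and 0.00 over all pairs of genes in the range. These tumors share depth differences and, in WT, mice, so r is given as a description. Summed over the set, Zelda (1563 CPM), Medusa (1348 CPM) and Massa (1345 CPM) were the highest KO tumors. Grilka (397 CPM), Oregon (418 CPM) and Montana (549 CPM) were the lowest. The place of Massa depends on the scaling, since its normalized library size was its total counts times 0.409. As a share of total counts, Massa (603 of 1109487) was below Ohio (9064 of 7761206), which had 865 CPM. Massa values of single genes rest on the same scaling. In WT the N42 left shoulder (1374 CPM) and N215 (1301 CPM) were highest and the N42 right femur (564 CPM) and N43 spine (685 CPM) lowest. Both genotypes therefore held tumors with high and with low ISG levels.

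**Figure D2:**
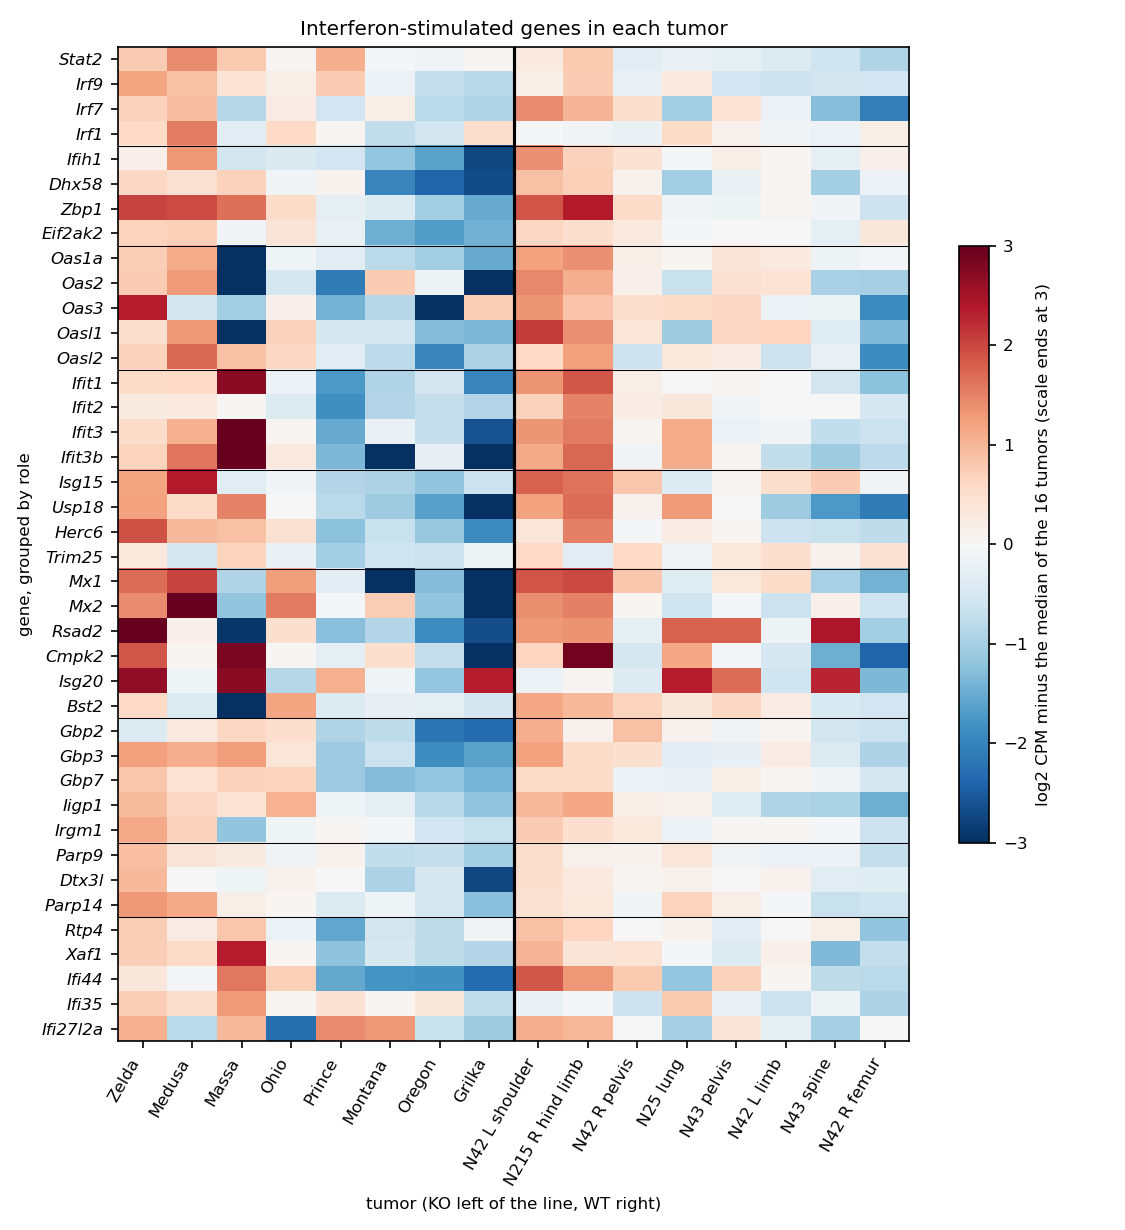
Log2 CPM of the 40 ISGs (rows, in role groups) in the 16 tumors (columns, KO left and WT right, each ordered by the median of the set), as the difference from the median of all tumors. Red columns such as Zelda, Medusa, the N42 left shoulder and N215 run through most role groups, Grilka is blue in most, and Massa mixes dark red cells (Ifit3 and Ifit3b among them) with dark blue cells at 0 counts (Oas1a, Oas2, Oasl1 and Bst2).

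The 4 tumors of mouse N42 differed by site although they shared the host. Of the 40 ISGs 39 were highest in the left shoulder tumor, where 19.4% of the genes in the level range were highest, and 34 were lowest in the right femur tumor, where 29.8% were lowest. The exception was Irf1, which was highest in the right femur (35.0 CPM) and at 29.6 CPM in the shoulder. The highest N42 tumor was at least 2-fold above the lowest in 34 members and in 27.1% of the genes in the range. The median fold range was 3.33 for the ISGs and 1.57 for the genes in the range. These tumors were compared after their values had been seen, each site is 1 tumor and no test was made.

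The left shoulder to right femur contrast was large in several role groups. Oasl1 was at 16.3 CPM in the shoulder and 1.36 CPM in the femur, a ratio of 12. Usp18 (13 and 1.14 CPM) and Irf7 (54.3 and 4.83 CPM) had ratios of 11.4 and 11.3. Mx1 and Oas3 had ratios of 10.9 and 10.6, and Isg15, with 29.2 and 7.90 CPM, a ratio of 3.70. The members under a 2-fold range were Irf9, Irf1, Eif2ak2, Trim25, Dtx3l and Ifi35. The left limb and right pelvis tumors of N42 lay between, with summed levels of 749 and 874 CPM. The macrophage marker sum did not follow this order: it was 1997 CPM in the shoulder, 2078 in the femur, 1781 in the left limb and 1730 in the pelvis. The osteoblast marker sum was 83963 CPM in the shoulder and 78564 CPM in the femur. T and NK cell markers summed to 6.02 CPM in the shoulder and 13.3 CPM in the femur. Skeletal muscle markers summed to 555 CPM in the shoulder, 47.2 in the femur, 948 in the left limb and 1484 in the pelvis. Genes of the plasmacytoid dendritic cell list summed to 348 CPM in the shoulder and 274 CPM in the femur. Only 1 of the 5 passed the count filter. Siglech, the defining gene of that list, was 0.18 to 3.55 CPM in WT, so these sums rest mainly on its other genes. The part of these cells in the contrast was not tested. In N43, the pelvis tumor was above the spine tumor in 31 members, with a median fold difference of 1.49 beside 1.33 for the genes in the range.

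**Figure D3:**
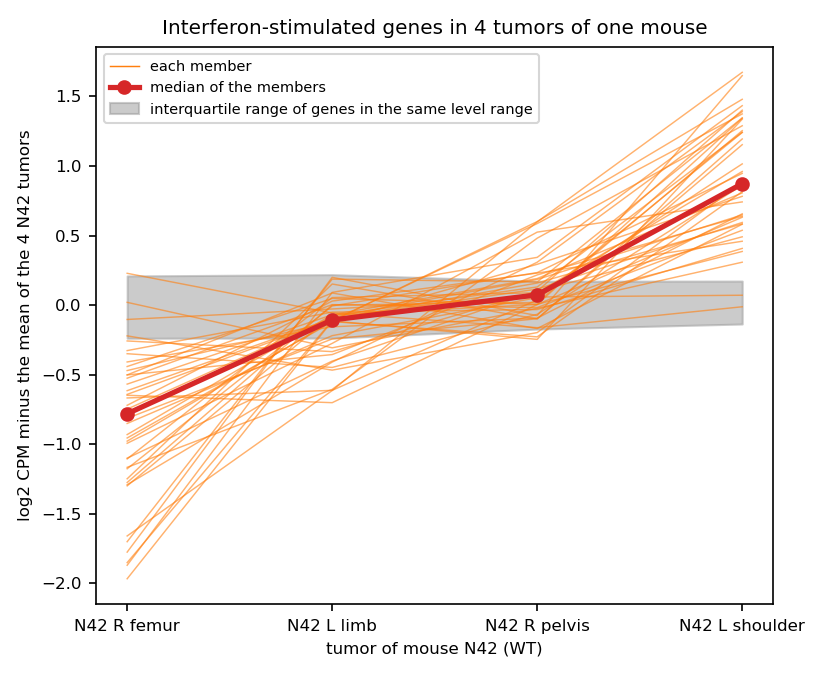
Log2 CPM of each ISG in the 4 N42 tumors relative to their mean (thin lines), the median of the ISGs (thick line) and the interquartile range of the genes in the same level range (gray band). The ISG median runs from -0.78 in the right femur to 0.87 in the left shoulder while the gray band stays around 0.

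Across the WT tumors, N215 and the N42 left shoulder were the 2 highest of 8 for 28 of 40 ISGs, beside 1.99% of the genes in the range. The other 12 included Rsad2, highest in both N43 tumors, and Isg20, highest in N25 and the N43 spine. Irf1, Ifi35 and Parp14 were highest in N25, and Trim25, Gbp2 and Xaf1 in the left shoulder and right pelvis of N42. Within KO, Medusa and Zelda were the 2 highest for 13 of 40, among them Irf7, Irf9, Isg15, Mx1, Ifih1, Zbp1 and Parp14, beside 4.67% of the genes in the range. This count was 20 with total-count scaling and 11 with RLE scaling. The tumors named here were picked after their values had been seen. Macrophage markers summed to 600 CPM in N215 and 1997 CPM in the N42 left shoulder.

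Macrophage markers were high in the WT mice N42 and N43, while the ISG sums of the groups overlapped. Of 14 macrophage marker genes, 9 fell in KO (64.3%, beside 2.15% of all genes) and 1 rose (7.14%, beside 1.86%), and their summed level was 297 to 657 CPM in KO (median 426) and 376 to 2078 CPM in WT (median 1756). Csf1r, the receptor for macrophage colony-stimulating factor, was 29.0 to 125 CPM in KO and 71.2 to 499 CPM in WT (adjusted p = 0.0164), and Cd68 also fell (adjusted p = 0.0220). The number of calls in this list was 10, and it was 0 with counts summed per mouse, with mouse as a random effect or without N42, 4 without Montana, Oregon and Prince and 6 without the N42 right femur tumor. The other WT mice, N25 (376 CPM) and N215 (600 CPM), lay within the KO range of the sum, so genotype and the mice N42 and N43 cannot be told apart here. The ISG sum ran from 397 to 1563 CPM in KO and from 564 to 1374 CPM in WT. Siglech, a marker of plasmacytoid dendritic cells, which release much type I interferon, was at most 4.68 CPM in any tumor. Cd3e of T cells was at 0 in 3 KO tumors and reached 16.7 CPM in KO and 5.29 CPM in WT. T and NK cell markers summed to 106 CPM in Zelda, where the KO median was 5.25 CPM. The part of these cells in the ISG values was not tested.

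**Figure D4:**
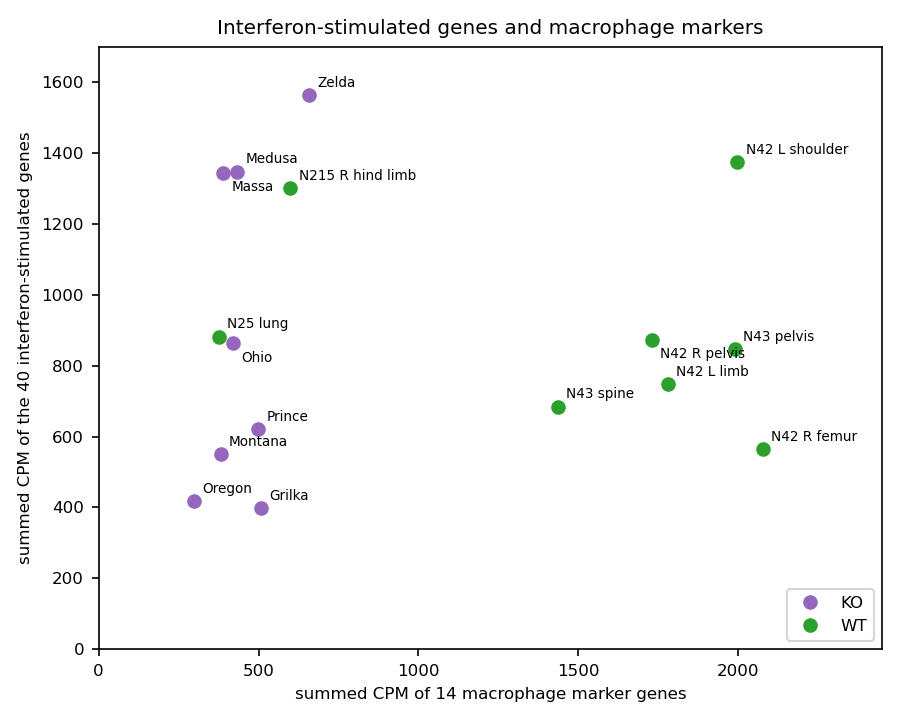
Summed CPM of the 40 ISGs (vertical) against summed CPM of 14 macrophage marker genes (horizontal) in each tumor, KO in purple and WT in green. KO tumors lie at or below 657 CPM of macrophage markers but span 397 to 1563 CPM of ISGs, and the N42 right femur and left shoulder have similar macrophage sums with ISG sums of 564 and 1374 CPM.

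Upstream and beside the set, 74 further genes of the interferon pathway were in the table and 73 were tested, and 0 rose and 3 fell in KO. This share (4.11%) is that of all genes called (4.01%), so it is not a result about the pathway, and the 3 genes are described singly. The 11 listed interferon ligand genes, among them Ifnb1 and Ifng, and Trex1 were not found by symbol in the count table, so their levels could not be assessed. The median log2 fold change of the 73 was -0.17. At an unadjusted p under 0.05 there were 15, 4 higher and 11 lower (20.5%, beside 23.0% of all genes), and DESeq2 called 7 (9.59%, beside 12.5%). Among the N42 tumors, 56 of the 74 (75.7%) were highest in the left shoulder, beside 19.4% of the genes in the level range of the ISGs. They included 37 of 42 of the further induced genes (88.1%) and 2 of 6 receptors (33.3%), and the difference between these groups was not tested.

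All 6 receptor subunits had estimates below 0 (median -0.58), and Ifngr1 passed the test. Ifngr1 (ENSMUSG00000020009, GRCm38 chromosome 10, 19591949 to 19610229), the ligand-binding chain of the interferon-gamma receptor, was between 27.6 and 78.7 CPM in KO (43.7 ± 16.7, mean ± SD, n = 8 tumors) and between 32.8 and 167 CPM in WT (112 ± 39.0, n = 8). Of the WT tumors 7 were above every KO tumor, and the WT tumor N215 was at 32.8 CPM, within the KO range. The log2 fold change was -1.36 ± 0.30 (SE; adjusted p = 0.0179). Its partner Ifngr2 had an estimate of -0.73 (adjusted p = 0.0865), and Ifnar1 and Ifnar2 of -0.78 and -0.44 (adjusted p = 0.109 and 0.317).

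The other 2 genes that fell were induced genes. Lgals3bp (ENSMUSG00000033880, chromosome 11, 118392751 to 118402092), a secreted glycoprotein that binds galectins, was between 15.1 and 99.3 CPM in KO (median 25.8) and between 67.0 and 315 CPM in WT (median 119). Medusa and Zelda lay within the WT range and the other KO tumors below it. Its log2 difference, KO minus WT, was -1.79 ± 0.45 (adjusted p = 0.0345). Ifi204 (ENSMUSG00000073489, chromosome 1, 173747293 to 173766943), a DNA-binding protein of a multigene family whose reads may be shared with its relatives, was between 3.98 and 26.8 CPM in KO (median 15.7) and between 10.5 and 85.1 CPM in WT (median 45.0). The lowest WT tumor was N25 and the next were N43 spine and N215, which overlapped KO. The difference on the log2 scale was -1.61 ± 0.42 (adjusted p = 0.0418). Macrophage markers were low in KO and in N25 and N215, as given above with the settings in which none of them is called. Ifngr1 was at 32.8 CPM in N215 but at 107 CPM in N25, above every KO tumor. Lgals3bp was at 67.0 CPM in N215 and 69.6 CPM in N25. In N43 spine, with a macrophage sum of 1436.5 CPM, Ifi204 was at 25.3 CPM, within the KO range. The part of macrophages in these differences was not tested. None of the 3 genes was called with counts summed per mouse, with the mouse as a random effect, without mouse N42 or without Montana, Oregon and Prince, and the largest adjusted p over the alternatives was 0.556 for Ifngr1, 0.660 for Lgals3bp and 0.689 for Ifi204. With RLE normalization, another scaling of the libraries, Ifi204 was lost (adjusted p = 0.0506), and without Massa and Grilka Lgals3bp was lost (adjusted p = 0.0623). When 1 tumor was left out, Ifngr1 stayed called in every case. Ifi204 was lost without any one of Medusa, Montana, Ohio, Prince, Grilka, Oregon, both N43 and all 4 N42 tumors (adjusted p from 0.0510 without Prince to 0.0976 without the N42 left shoulder). Lgals3bp was lost without any one of Montana, Prince, Grilka, Oregon, N43 spine and all 4 N42 tumors (from 0.0502 without N43 spine to 0.0808 without the N42 left shoulder).

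**Figure D5:**
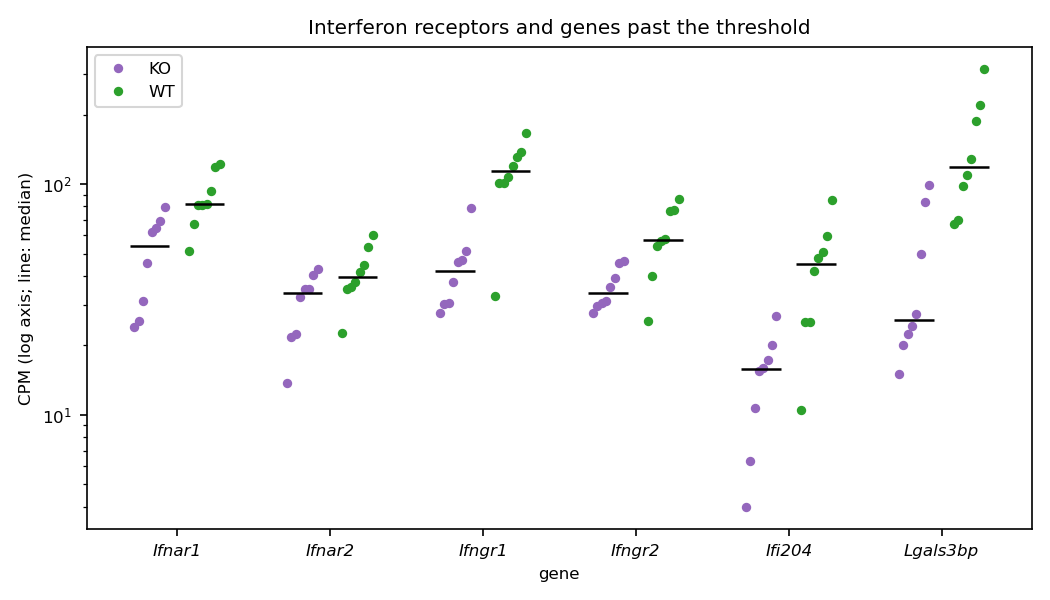
CPM (log axis) of the type I and type II interferon receptor genes and the induced genes that fell, with 1 point per tumor, KO in purple, WT in green and the median as a line. Ifngr1 shows 7 of 8 WT points above all KO points and 1 within them.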

How the data were processed

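RNA was extracted from 16 osteosarcomas, ribosomal RNA was removed with RiboZero, and 50-cycle single-end reads were sequenced. Per the submitters' processing notes, reads were aligned with Novoalign 2.08.01 to mm10 and analyzed with DESeq2 1.26.0. The authors counted reads on each gene and deposited raw counts without normalization. The authors kept the best of many alignments per read, so counts of near-identical genes are uncertain. Library strand is not given in the sources used here.

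All 16 tumors entered one comparison, 8 KO against 8 WT, with edgeR 4.0.16 in R 4.3.3 (TMM, filterByExpr at count 10 and total 15, quasi-likelihood F test, two-sided, no covariate). P-values were adjusted by Benjamini-Hochberg over all 15413 genes tested, at 0.05, and 9641 genes with low counts were left out. Tumors of one mouse were treated as separate samples here, so p-values partly measure the spread within mice. Alternatives were DESeq2 1.42.0, limma-voom 3.58.1 taking mouse as a random effect, counts summed per mouse, other scaling, no filter, and leaving out tumors. Log2 CPM used a prior count of 2. The fit was tested on simulated data. Positions and exon lengths come from GENCODE vM21 (GRCm38). Floors of 3 counts cover counting error only.

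The 40 genes and all lists were chosen with earlier results of these data known. Every member is named. Values by group are given for the most abundant member of each role group and for the 3 members with the largest fold change in each direction, and for pathway genes past the threshold. Comparisons of single tumors were added after the values were seen. The labels name no batch or date. Some genes that the naming rule covers are not reported here.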

Additional observations from a re-analysis of the deposited data

Results flagged for a closer look

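In 48 genes, 96 gene and group pairs were searched for a tumor far from the rest of its group on the log2 CPM scale (Dixon's test at the 95% level), and 7 were found. Chance gives about 1 in 20. Of these, 5 were KO tumors of low depth at 0 counts: Oas1a, Oasl1 and Bst2 were 0 CPM in Massa, where the next lowest KO tumors were at 1.34, 1.34 and 5.37 CPM, and Usp18 and Cmpk2 were 0 CPM in Grilka, where the next were at 1.68 and 3.64 CPM. In these libraries 3 counts are 6.69 CPM (Massa) and 4.03 CPM (Grilka). Oas3 was 1.14 CPM (20 counts) in the N42 right femur tumor, while the next lowest WT tumor was at 4.19 CPM. Ifngr1 was 32.8 CPM (289 counts) in N215, while the other WT tumors were at 101 CPM or more.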

How the results depend on the processing

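No paired analysis was possible because no mouse gave both KO and WT tumors. The median log2 fold change of the 40 genes was -0.06. It was -0.30 to 0.07 when 1 tumor was left out, -0.24 with the mouse as a random effect and 0.26 without Montana, Oregon and Prince. In all 25 alternatives it moved by less than 0.70, the SD between single tumors of the median log2 deviation of the set. That SD is a wide bound for a difference between groups, so staying within it says little about stability. The number of members past the threshold was 0, and 0 to 1 when 1 tumor was left out, the 1 being Rsad2 without Zelda. The number of pathway genes past the threshold was 3, and 7 with DESeq2, 2 with RLE normalization (without Ifi204), 0 with the mouse as a random effect, 0 with counts summed per mouse, 0 without N42, 0 without Montana, Oregon and Prince, and 1 to 6 when 1 tumor was left out. Over all genes 618 were called, 2517 with DESeq2, 17 with the mouse as a random effect, 10 with counts summed per mouse, 8 without N42 and 252 to 1348 when 1 tumor was left out. The cause of these differences was not tested. Members whose estimate changed sign, none of them called, numbered 9 with the mouse as a random effect, 13 without Montana, Oregon and Prince and 2 to 8 when 1 tumor was left out. Medusa and Zelda were the 2 highest KO tumors for 13 members for 20 with total-count scaling and for 11 with RLE scaling, alternatives chosen after seeing the data. Depth limits the KO tumors most, since low genes fall to 0 in Massa and Grilka.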
